A study of Mus musculus with 4 samples.

Results

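A set of 6 genes of glucose sensing and stimulus-secretion coupling was followed through mouse islet cells exposed to cytokines. They were *Slc2a2*, *G6pc2*, *Kcnj11*, *Abcc8*, *Cacna1d* and *Hadh*, chosen by name for their place on the path from glucose to insulin release, and are 6 of the 31053 genes in the count matrices. All 6 had counts. Their levels were measured in β-, α- and δ-cells of 4 libraries.

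Islets from male C57BL/6 mice were pooled from several animals, cultured, and left untreated or exposed ex vivo for 6 h to IL-1β, to IFN-γ or to both cytokines, then dissociated for droplet-based 3′ single-cell RNA sequencing (scRNA-seq). The study's methods name the strain C57BL6/J. The IL-1β was a human recombinant protein and the IFN-γ that of the mouse. Each condition was 1 library, so no difference below has a replicate check or a p-value, and library and treatment cannot be told apart. The untreated library held 3486 barcodes and 50731370 UMIs (unique molecular identifiers, which count captured mRNA molecules), the IL-1β library 2911 and 20056630, the IFN-γ library 3694 and 31209339, and the library with both cytokines 2480 and 25716645. Barcodes were retained at 200 to 4000 genes, with mitochondrial transcripts at 12% of UMIs or less, which left 1521 untreated, 2018 IL-1β, 2122 IFN-γ and 1810 doubly treated cells.

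β-cells take up glucose through the transporter GLUT2, phosphorylate it and burn it, and the rise in ATP closes potassium channels, depolarises the membrane and opens voltage-gated calcium channels, which drives insulin release. *Slc2a2* encodes GLUT2, and *G6pc2* the islet glucose-6-phosphatase catalytic subunit, which removes the phosphate again. *Kcnj11* (Kir6.2, the pore) and *Abcc8* (SUR1, the sulfonylurea receptor) make up the ATP-sensitive potassium (KATP) channel, *Cacna1d* encodes the L-type calcium channel Cav1.3, and *Hadh* encodes a mitochondrial short-chain 3-hydroxyacyl-CoA dehydrogenase whose loss raises insulin secretion.

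In the GRCm38 annotation (GENCODE M21), *Slc2a2* lies at chr3:28697903-28731359 on the plus strand and *G6pc2* at chr2:69211073-69227841 on the plus strand. *Kcnj11* (chr7:46093953-46100764) and *Abcc8* (chr7:46104523-46180033) are neighbours on the minus strand with 3758 bases between them. *Cacna1d* lies at chr14:30039939-30491455 and *Hadh* at chr3:131233419-131272101, both on the minus strand. Genes on the opposite strand overlap *Slc2a2* (1700112D23Rik), *Abcc8* (Gm45486) and *Cacna1d* (*Chdh*, *Dcp1a*), and the sources used here do not state that counting used strand. In untreated β-cells these overlapping genes held 7, 173, 7 and 186 UMIs.

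The 250 bases upstream of the RefSeq start (GRCm38.p6) are shown for *Slc2a2* and *Hadh*, which were lower in both libraries with IL-1β, and for *G6pc2*, which was higher with IL-1β alone: *Slc2a2* (chr3:28697653-28697902, plus strand), *G6pc2* (chr2:69210823-69211072, plus strand) and *Hadh* (chr3:131272102-131272351, minus strand). Each is written 5′ to 3′ on the strand of its gene. Capitals mark TAAT or its complement ATTA (a homeodomain core) and CANNTG (an E-box, which reads alike on both strands).
Slc2a2: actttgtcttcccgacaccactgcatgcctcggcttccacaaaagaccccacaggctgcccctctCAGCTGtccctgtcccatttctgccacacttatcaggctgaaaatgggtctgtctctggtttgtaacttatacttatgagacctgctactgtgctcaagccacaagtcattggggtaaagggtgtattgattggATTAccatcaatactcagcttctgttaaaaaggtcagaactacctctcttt
G6pc2: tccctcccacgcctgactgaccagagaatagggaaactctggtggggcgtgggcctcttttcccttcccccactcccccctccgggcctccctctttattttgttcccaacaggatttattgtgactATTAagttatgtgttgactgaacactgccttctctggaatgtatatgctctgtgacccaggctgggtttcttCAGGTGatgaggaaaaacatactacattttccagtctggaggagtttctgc
Hadh: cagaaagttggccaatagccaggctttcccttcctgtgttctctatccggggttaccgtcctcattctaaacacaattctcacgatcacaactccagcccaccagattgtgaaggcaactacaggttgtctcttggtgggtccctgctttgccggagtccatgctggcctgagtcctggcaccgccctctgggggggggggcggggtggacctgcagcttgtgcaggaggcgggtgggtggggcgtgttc
Both strands were searched. A MAF half-site, spelled TGCTGA, was looked for as well. *Slc2a2* and *G6pc2* each held 1 homeodomain core and 1 E-box, and neither held a MAF half-site. The *Hadh* window held none of the 3. *Cacna1d* was also lower in both libraries with IL-1β, though short of 1.5-fold in CPM with IL-1β alone. Its window is not shown and held 2 homeodomain cores, but neither an E-box nor a MAF half-site. A TATA box, spelled TATAAA, was searched as well and was found in the *Cacna1d* window only. Among 32851 RefSeq promoter windows of this length, 54.9% held a homeodomain core, 66.2% an E-box, 16.1% a MAF half-site and 12.4% a TATA box. A match is a run of letters and not a measured binding site.

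Cells were assigned to a class by the hormone that led their UMIs, with at least 5% of UMIs and at least 3 times the next hormone. This gave 1191, 1172, 1287 and 1297 β-cells (untreated, IL-1β, IFN-γ and both, an order kept below where 4 values follow each other), 88, 338, 288 and 168 α-cells, and 27, 70, 109 and 49 δ-cells. All 7 β-cell markers summed to 283180 to 475459 CPM in β-cells and 4618 to 8964 in α-cells over the 4 libraries, and all 7 α-cell markers to 170509 to 229450 CPM in α-cells and 546 to 1197 in β-cells. These sums are led by the hormone genes that set the classes, and detection alone does not part them, since all 7 α-cell markers were also detected in β-cells of every library and all 7 β-cell markers in α-cells of 3 libraries. δ-cells held 4 of 5 markers in every library, with *Cckbr* at 0 in all 4. The same number was detected in β-cells with IL-1β and with both, and in α-cells with IFN-γ and with both. The δ-cell markers summed to 101721 to 133180 CPM in δ-cells, led by *Sst*, to 109 to 737 in β-cells and to 2319 to 3689 in α-cells. Untreated β-cells were the deepest, with a median of 17117 UMIs against 8428, 11082 and 12251 in the IL-1β, IFN-γ and doubly treated libraries. The upper limit on genes per cell cut the libraries unequally, and the untreated one most. Without it there were 1901, 1228, 1453 and 1438 β-cells, against the 1191, 1172, 1287 and 1297 used. The untreated reference is thus a part of its β-cells, and the hormone shares below were not recomputed without the limit.

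Hormone transcripts took 47.6% of the UMIs of untreated β-cells but 28.6%, 34.5% and 37.9% under IL-1β, IFN-γ and both, so the level of every other gene moves with them. Levels are therefore given per 1000000 UMIs (CPM) and, beside them, per 1000000 UMIs left after 7 hormone genes (*Ins1*, *Ins2*, *Gcg*, *Sst*, *Ppy*, *Pyy*, *Iapp*) were taken out. Genes with a mean of at least 20 CPM over the libraries compared are called tested. With hormone genes in the totals, the median ratio to untreated of all genes tested in β-cells was 1.40 under IL-1β, 1.252 under IFN-γ and 1.12 under both (log2 0.48, 0.32 and 0.17). Without them it was 1.03, 1.003 and 0.948. Brackets hold exact 95% intervals, which cover counting error only and say nothing of the spread between islet cultures.

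The 6 genes did not move together in β-cells. With IL-1β, 2 of the 6 were at least 1.5-fold below the untreated library (*Slc2a2*, *Hadh*), where 5.93% of the 5113 genes tested were, and 1 was at least 1.5-fold above it (*G6pc2*), where 42.4% of genes were. Without the hormone genes, *Abcc8* and *Cacna1d* joined the lower set (4 of 6, against 15.8% of genes) and none of the 6 was 1.5-fold higher (17.1% of genes). With IFN-γ alone, 1 of 6 was lower (*Slc2a2*), where 0.566% of 4950 genes were, and none was higher (17.9% of genes). Without the hormone genes those counts stayed at 1 (3.41% of genes) and 0 (4.63% of genes). The *Slc2a2* ratio with IFN-γ was close to the 1.5-fold limit, at 0.652, and with no upper limit on genes per cell it was 0.672 and no longer counted. With both cytokines, 4 of 6 were lower (*Slc2a2*, *G6pc2*, *Cacna1d*, *Hadh*) on either scale, against 11.1% of 4783 genes with the hormone genes and 18.3% without, and none was higher (24.8% and 16.1% of genes). The median ratio over the 6 genes was 0.796, 1.01 and 0.531 under IL-1β, IFN-γ and both, and 0.585, 0.809 and 0.448 without the hormone genes. The 3 comparisons share the untreated library. The 6 genes were not chosen independently of these data, so the counts describe them and are no independent evidence of a direction.

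**Figure D1:**
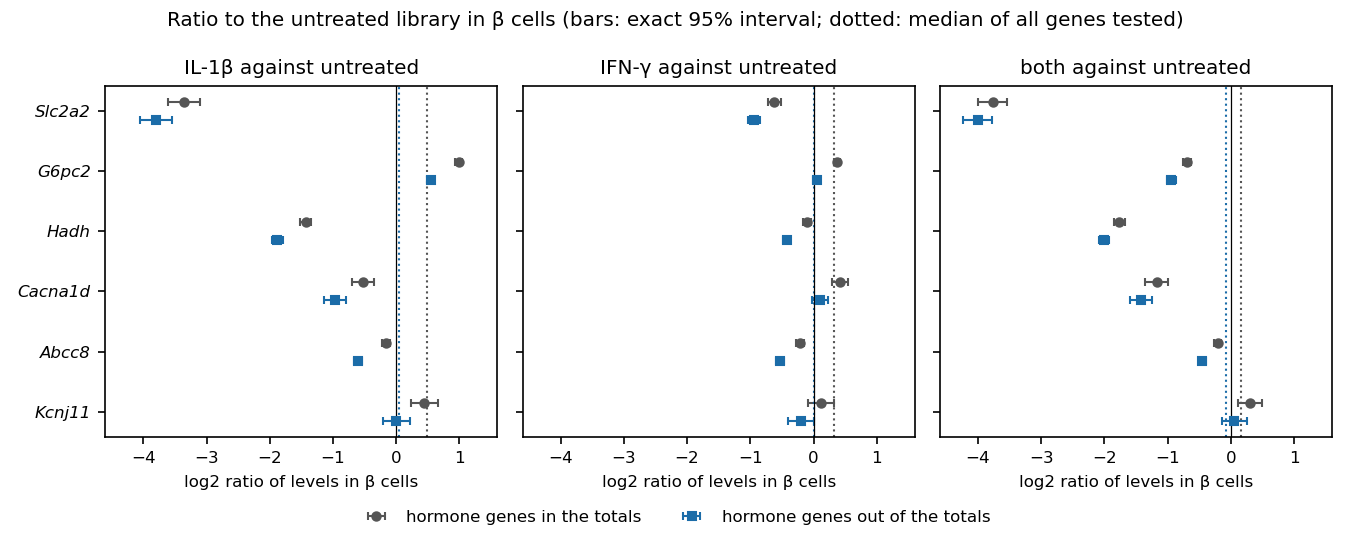
Log2 ratio of each of 6 genes to the untreated library in β-cells, with hormone genes in (grey circles) and out (blue squares) of the totals, with exact 95% intervals as bars and the median of all genes tested as dotted lines. *Slc2a2* lies far to the left with IL-1β and with both cytokines on either scale, *G6pc2* lies right of 0 with IL-1β and left of it with both, and *Kcnj11* with IFN-γ changes sides between the scales (ratios of 1.09 and 0.873).

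*Slc2a2*, the glucose transporter gene, was far lower in both libraries that received IL-1β. Its β-cell level was 138 CPM (133 to 143) untreated, 13.5 (11.4 to 16.0) under IL-1β, 90.0 (85.1 to 95.01) under IFN-γ and 10.2 (8.68 to 11.9) under both. The untreated and IFN-γ levels stood apart from every other library, and the IL-1β and double-treatment intervals overlapped, with a ratio of the second to the first of 0.752 (0.596 to 0.951), or 0.866 (0.685 to 1.09) without the hormone genes. Without the hormone genes the 4 levels were 263, 18.9, 137 and 16.4 per 1000000. The level was thus 10.2-fold lower with IL-1β (8.59 to 12.2) and 13.6-fold lower with both cytokines (11.6 to 16.0), and 13.9-fold and 16.1-fold lower without the hormone genes. In neither of these comparisons did any other gene tested, of 5113 and 4783, have a lower ratio. With IFN-γ the ratio was 0.652 (0.609 to 0.696), or 0.522 without the hormone genes, and 21 of 4950 genes were lower.

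**Figure D2:**
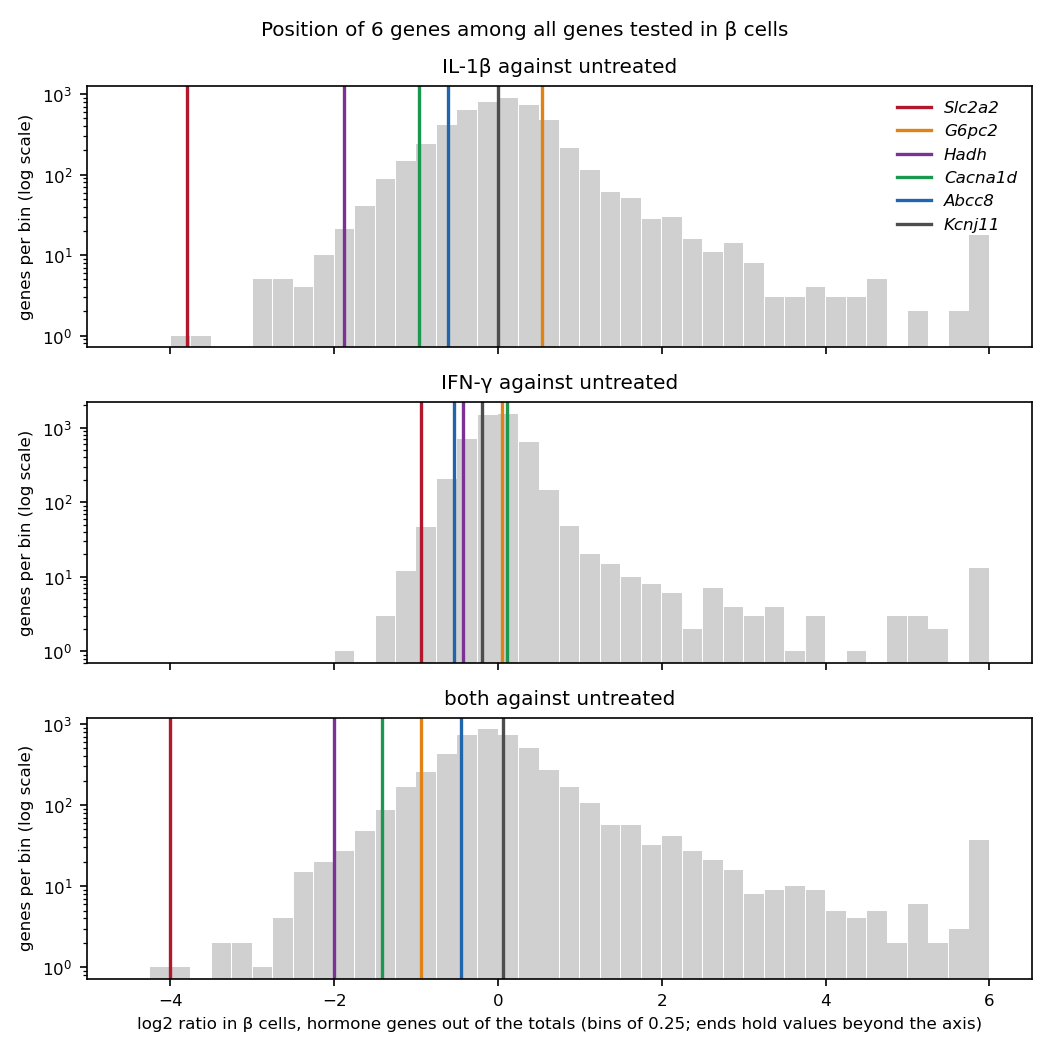
Log2 ratio to the untreated library of all genes tested in β-cells (grey bars, genes per bin of 0.25 on a log axis), with hormone genes out of the totals, and the 6 genes as coloured lines. *Slc2a2* sits at the left edge with IL-1β and with both cytokines, and *Kcnj11* near 0 in these panels.

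*G6pc2*, whose product turns glucose-6-phosphate back into glucose, stood above the untreated level with IL-1β alone and below it with the pair of cytokines. It stood at 289 CPM (282 to 297) untreated, 574 (559 to 589) under IL-1β, 374 (364 to 384) under IFN-γ and 179 (172 to 185) under both. No intervals overlapped. Without the hormone genes the levels were 551, 804, 571 and 288 per 1000000, and the intervals of the untreated and IFN-γ libraries then overlapped. The ratio to untreated was 1.98 (1.91 to 2.06) under IL-1β, 1.46 without the hormone genes, and 0.618 (0.591 to 0.646) under both, 0.522 without the hormone genes. Against the IL-1β library, the doubly treated β-cells held 3.21-fold less *G6pc2* (3.07 to 3.36), and 7 of 5217 genes had a lower ratio in that comparison. The product of the ratios with each cytokine alone was 2.57, against the 0.618 seen with both, and 1.51 against 0.522 without the hormone genes. For *Slc2a2* that product was 0.0639, against 0.0737, and 0.0376 against 0.0623 without the hormone genes.

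In CPM the KATP channel genes stayed within 1.5-fold of untreated in all 3 comparisons. *Abcc8* (SUR1) stood at 310.5 CPM (303 to 318) untreated, 278 (268 to 289) under IL-1β, 268 (260 to 277) under IFN-γ and 269 (261 to 278) under both. The 3 treated libraries overlapped and lay below the untreated one. Its ratios were 0.896, 0.863 and 0.868, and 0.658, 0.691 and 0.733 without the hormone genes. *Kcnj11* (Kir6.2) stood at 22.1 CPM (20.1 to 24.3) untreated, 30.1 (26.8 to 33.7) under IL-1β, 24.1 (21.6 to 26.8) under IFN-γ and 27.2 (24.7 to 29.9) under both. Its ratio was 1.36 (1.17 to 1.58) under IL-1β and 1.23 (1.08 to 1.41) under both, and without the hormone genes 0.9997 (0.861 to 1.16) and 1.04 (0.909 to 1.19). With IL-1β its ratio in CPM was no larger than that of the median gene (1.40).

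*Cacna1d*, a calcium channel gene, was highest with IFN-γ and lowest with both cytokines. It stood at 51.01 CPM (47.9 to 54.2) untreated, 35.5 (32.0 to 39.4) under IL-1β, 68.4 (64.2 to 72.9) under IFN-γ and 22.6 (20.3 to 25.1) under both. No intervals overlapped. The ratio was 0.697 (0.616 to 0.787) under IL-1β, 1.34 (1.23 to 1.47) under IFN-γ and 0.443 (0.392 to 0.5002) under both. Without the hormone genes these were 0.512, 1.07 and 0.374, and the interval for IFN-γ then included 1 (0.984 to 1.17).

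*Hadh* was low in both libraries that received IL-1β. It stood at 316 CPM (308 to 324) untreated, 117 (110 to 124) under IL-1β, 294 (285 to 303) under IFN-γ and 93.2 (88.5 to 98.0) under both. No intervals overlapped. The level was 2.70-fold lower with IL-1β (2.54 to 2.87) and 3.39-fold lower with both (3.20 to 3.59), and 3.68-fold and 4.01-fold lower without the hormone genes. A lower ratio was found for 34 of 5113 genes with IL-1β and 45 of 4783 under both. With IFN-γ it was 0.931 (0.895 to 0.968), or 0.745 without the hormone genes.

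**Figure D3:**
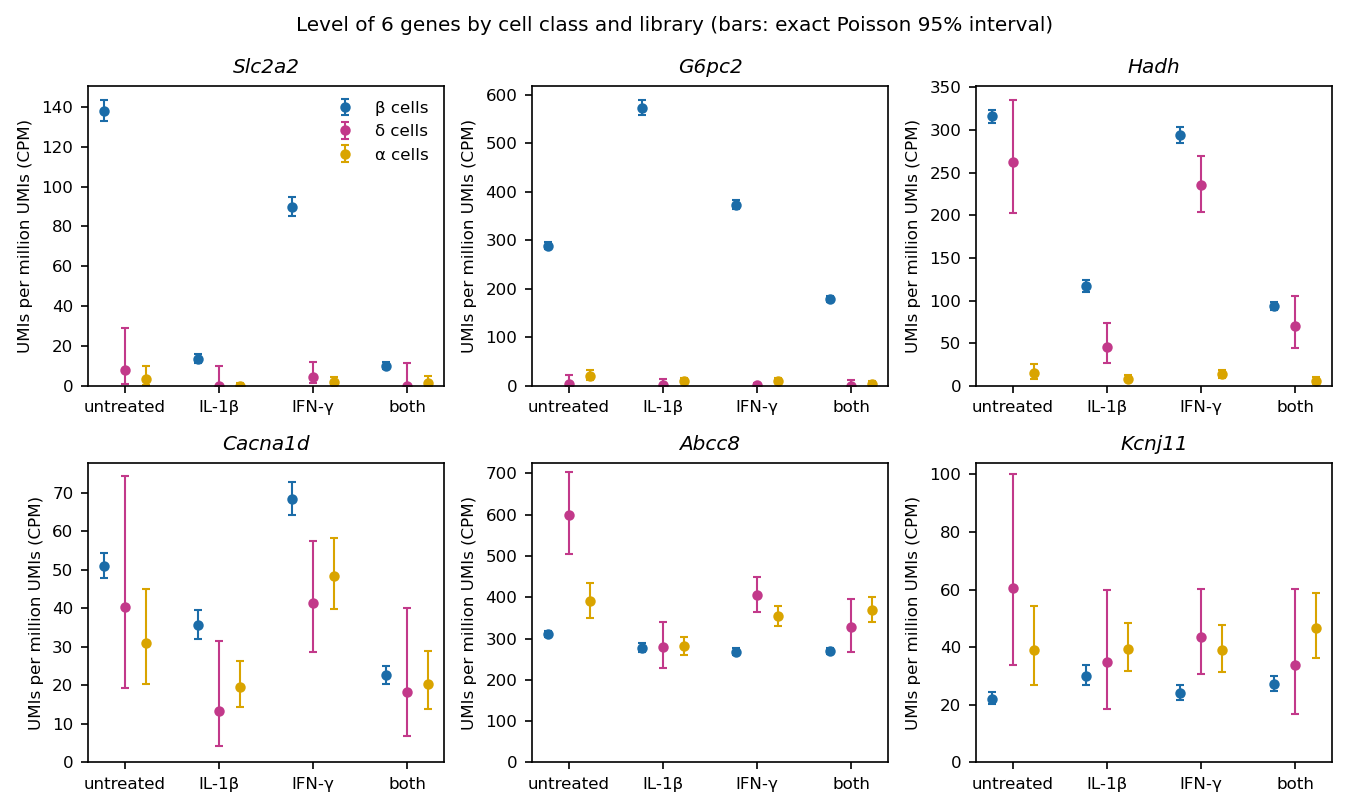
Level of each of 6 genes (CPM, hormone genes in the totals) in β-, δ- and α-cells of the 4 libraries, with exact Poisson 95% intervals. *Slc2a2* in α- and δ-cells and *G6pc2* in δ-cells rested on 4 UMIs or fewer per library. They reached at most 8.08 CPM (*Slc2a2* in untreated δ-cells). *G6pc2* in α-cells lay between 4.59 and 20.6 CPM. *Hadh* in δ-cells lay nearer its β-cell level than in α-cells, though below it with IL-1β (45.8 against 117), and *Abcc8* and *Kcnj11* were present in all 3 classes.

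Counts per cell were compared after each β-cell was thinned to 4000 UMIs, which left 1153, 1098, 1237 and 1266 cells. After thinning, 36.4% of untreated β-cells held a *Slc2a2* UMI, against 4.92% under IL-1β, 25.1% under IFN-γ and 3.24% under both. The unthinned shares were 71.7%, 9.30%, 47.1% and 10.6%. For *G6pc2* the thinned shares were 63.4%, 76.3%, 68.9% and 42.1%. The IL-1β library had both a long upper tail and cells without *G6pc2*: 21.7% of its β-cells held 4 or more UMIs and 23.7% held none, and the variance over the mean was 2.35. In untreated β-cells 5.29% held 4 or more and the variance over the mean was 1.30. For *Hadh* the thinned shares were 68.5%, 33.6%, 64.7% and 29.5%, for *Cacna1d* 20.6%, 12.02%, 25.9% and 9.79%, for *Abcc8* 69.0%, 63.6%, 63.5% and 64.6%, and for *Kcnj11* 9.54%, 11.8%, 7.60% and 10.6%. The unthinned shares ran from 23.1% to 55.2% for *Cacna1d* and from 21.5% to 29.5% for *Kcnj11*.

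**Figure D4:**
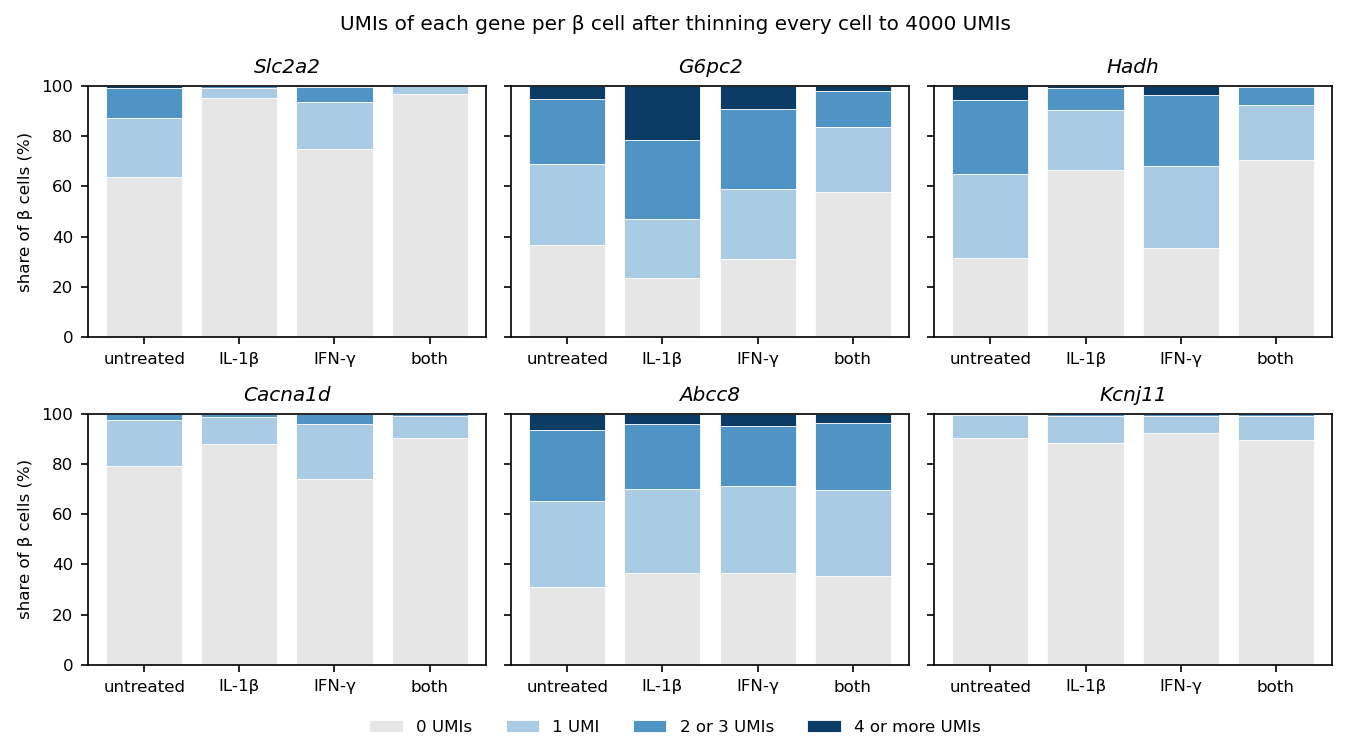
Share of β-cells (%) with 0, 1, 2 or 3, and 4 or more UMIs of each gene after thinning every cell to 4000 UMIs, by library. Cells without a UMI of *Slc2a2* were the majority in all 4 libraries (63.6%, 95.1%, 74.9% and 96.8%) and those without *Hadh* the majority with IL-1β and with both (66.4% and 70.5%), and the share with 4 or more *G6pc2* UMIs was largest with IL-1β (21.7%).

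δ-cells, which release somatostatin, carried *Hadh* and held less of it with IL-1β as well. The δ-cell level was 263 CPM (203 to 335) untreated, 45.8 (26.7 to 73.3) under IL-1β, 235 (203 to 270) under IFN-γ and 70.4 (44.6 to 106) under both. The libraries without IL-1β overlapped each other and stood above those with it. The untreated δ-cell level was 0.831 of the β-cell level (0.641 to 1.06), or 0.582 (0.448 to 0.743) without the hormone genes, while in CPM the IL-1β library gave 0.391 (0.227 to 0.629), the IFN-γ library 0.799 (0.689 to 0.921) and the doubly treated library 0.756 (0.478 to 1.14). In the untreated δ-cells *Slc2a2* had 2 UMIs and *G6pc2* 1, with ratios to β-cells of 0.0585 (0.00709 to 0.212) and 0.0140 (0.000354 to 0.0779). *Hadh* in δ-cells was 5.74-fold lower with IL-1β (3.32 to 10.4) and 3.73-fold lower with both (2.29 to 6.29). In non-endocrine cells of the same libraries *Hadh* was 45.3 CPM (29.9 to 65.95) untreated, 20.4 (9.79 to 37.5) under IL-1β and 29.8 (17.3 to 47.7) under both. The δ-cell intervals under IL-1β and under both overlapped these, and the untreated one lay above.

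*Abcc8* in δ-cells was 598 CPM (506 to 703) untreated, 280.0 (229 to 339) under IL-1β, 405 (363 to 450) under IFN-γ and 328 (268 to 396) under both. The untreated level stood above the other 3. In untreated islets δ-cells held 1.93 times the β-cell level (1.63 to 2.27), or 1.35 times (1.14 to 1.59) without the hormone genes. All 4 genes that could be tested in δ-cells (*Kcnj11*, *Abcc8*, *Cacna1d*, *Hadh*) were at least 1.5-fold lower with IL-1β, where 23.3% of 6137 genes were, and with both cytokines, where 30.4% of 5951 were. None was with IFN-γ (16.0% of 6077 genes). The *Kcnj11* and *Cacna1d* ratios of δ-cells rest on 37 UMIs or fewer in each library and their intervals in CPM included 1 in all 3 comparisons. *Cacna1d* had 10, 5, 35 and 6 UMIs (40.4, 13.5, 41.3 and 18.4 CPM) and passed the minimum of 20 CPM with IL-1β and with both only through the untreated library, so its place in the counts of 4 was set by the difference itself. The untreated library holds 27 δ-cells. Cells rich in *Hspa1a*, a heat-shock chaperone gene (at least 10 of its UMIs per 10000), were 0, 1, 3 and 18 of the δ-cells and 2, 19, 7 and 54 of the α-cells across the 4 libraries. Without them all 4 genes were still at least 1.5-fold lower in δ-cells with both cytokines, with ratios of 0.4996 for *Abcc8* and 0.259 for *Hadh*.

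α-cells, which release glucagon, held the KATP channel genes and *Cacna1d* but little of the other 3. *Abcc8* was 390.0 CPM (350 to 434) untreated, 281 (260 to 304) under IL-1β, 354 (331 to 380) under IFN-γ and 370 (340 to 401) under both. Only the IL-1β level lay below the untreated interval, with a ratio of 0.721 (0.632 to 0.824). *Kcnj11* stayed between 38.9 and 46.6 CPM with overlapping intervals, 1.76 times the β-cell level untreated (1.20 to 2.49), or 1.22 times (0.832 to 1.73) without the hormone genes. *Cacna1d* was 30.9 CPM (20.4 to 44.9) untreated, 19.7 (14.4 to 26.3) under IL-1β, 48.4 (39.8 to 58.2) under IFN-γ and 20.3 (13.8 to 28.9) under both. The IFN-γ level stood above those with IL-1β and with both, and the interval of each overlapped the untreated one. Of the 3 genes tested, *Cacna1d* was at least 1.5-fold lower with IL-1β (17.5% of 5732 genes) and with both (22.7% of 5720), with intervals of 0.388 to 1.07 and 0.381 to 1.15 (a ratio of 0.749 with both without the *Hspa1a*-rich cells, short of 1.5-fold), and none was lower with IFN-γ (5.68% of 5917). With IL-1β *Cacna1d* passed the minimum of 20 CPM only through the untreated library, so that call was set by the difference itself. Its ratio with IL-1β was 1.61 without cells holding markers of other types. That filter left only 26 of 88 untreated and 29 of 338 IL-1β α-cells. Its ductal list includes *Spp1*, which stood at 2286 and 8831 CPM in the α-cells of these libraries. The call with IL-1β was also lost at a mitochondrial limit of 20% and at a hormone share of 2%. With IFN-γ *Cacna1d* was the 1 gene at least 1.5-fold higher, where 13.1% of genes were, with a ratio of 1.57 (1.02 to 2.48), or 1.46 (0.949 to 2.31) without the hormone genes.

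*Hadh* in α-cells was 14.9, 8.56, 13.4 and 5.25 CPM across the 4 libraries, 21.2-fold below β-cells untreated (12.4 to 39.9). *G6pc2* in α-cells was 20.6, 10.7, 10.8 and 4.59 CPM and *Slc2a2* 3.43, 0, 1.73 and 1.31 CPM. The IL-1β zero allows up to 1.28 CPM, the level of 3 counts.

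RNA released from broken cells gives UMIs in droplets whose cell does not express a gene, so the 6 genes were also counted in 325 non-endocrine cells (median 7376 UMIs), in which *Ins2* was seen in 99.4%. There *Slc2a2* was seen in 1.85% of cells, *G6pc2* in 2.46%, *Abcc8* in 13 of 325, *Cacna1d* in 2.77% and *Kcnj11* in 0 of 325, which allows up to 0.923% (3 counts). The *Slc2a2* shares in α-cells (3.41%, 0%, 1.39% and 1.19% across the 4 libraries, median 6502 to 10864 UMIs) and in δ-cells (7.41%, 0%, 3.67% and 0%) had intervals that overlapped this background. *G6pc2* in α-cells (14.8%, 5.92%, 7.29% and 2.98%) lay above the pooled non-endocrine share (1.07% to 4.79%) in the untreated library (8.11% to 23.9%) and overlapped it in the other 3. Against the non-endocrine cells of the same library, the IFN-γ share lay above, where 0 of 105 such cells held it, and the other 3 overlapped, and in CPM the untreated and IFN-γ levels lay above. In δ-cells *G6pc2* was seen in 1, 1, 1 and 0 cells, and these shares overlapped the pooled one. *Hadh*, used by many tissues, was seen in 18.2% of non-endocrine cells (29.4 CPM), above its α-cell level.

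The rest of the pathway was followed in β-cells through 70 genes in 5 lists that leave out the 6 above. Counts are of genes at least 1.5-fold from untreated with both cytokines, with 11.1% of all genes lower and 24.8% higher. Of the calcium channel and calcium handling genes, 7 of 10 tested were lower and 1 was higher: *Cacna1a* (a P/Q-type channel) was 68.5 CPM untreated and 32.2 with both, and *Itpr1* (an inositol trisphosphate receptor) 41.8 and 16.9, while *Cacna1c* (Cav1.2) was 24.0 and 24.7 and *Itpr3* 20.6 and 30.9. Since *Itpr1* passed the minimum mean level only through the untreated library, its place among the lower calcium genes was set by the difference itself. The median ratio of that list was 0.606. Of the potassium channel genes, 3 of 4 tested were lower and none higher, with *Kcnk16* (TALK-1) at 88.6 CPM untreated and 33.0 with both, *Kcnma1* at 33.5 and 14.0, and *Kcnip1* at 23.1 and 29.0. Here *Kcnma1* passed the minimum mean level only through the untreated library, so its place among the lower genes was set by the difference itself.

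Of the glucose uptake and phosphorylation genes, none of 6 tested was lower and 2 were higher. The minimum of 20 CPM is a mean over both libraries, so a gene near it enters or leaves with the difference itself: *Slc2a1* entered through the treated library, and *Slc37a4* (the glucose-6-phosphate transporter, 28.9 CPM untreated and 5.25 with both) and *Pfkfb2* (24.9 and 13.4), named after their values were seen, were left out. At a minimum of 5 CPM, added after seeing the data, 3 of 9 were lower and 2 higher (16.3% and 21.5% of all genes). *Slc2a1*, which encodes the transporter GLUT1, was 16.8 CPM untreated, 82.3 under IL-1β, 20.05 under IFN-γ and 61.5 under both. *Pfkp*, a phosphofructokinase, stood at 52.8, 229, 81.1 and 223 CPM across the 4 libraries. *G6pc3*, the widely expressed relative of *G6pc2*, was 23.5, 24.8, 29.1 and 22.2 CPM. The transporter genes *Slc2a2* and *Slc2a1* thus lay on opposite sides of the untreated level in both libraries with IL-1β, on either scale.

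Of the mitochondrial genes, 3 of 17 were lower and 1 higher, with *Idh2* at 93.2 CPM untreated and 37.1 with both, *Pcx* (pyruvate carboxylase) at 40.4 and 16.6, *Me1* (malic enzyme), the gene that was higher and that passed the minimum through the treated library, at 14.2 and 33.1, and *Atp5b* at 354 and 449. Conversely, *Pcx* passed the minimum only through the untreated library, so its place among the lower genes was set by the difference itself. Of the fatty acid oxidation genes, none of 9 tested was lower and 2 were higher. *Hadhb* and *Echs1*, enzymes of the same β-oxidation cycle as *Hadh*, were 57.9 and 33.5 CPM untreated and 88.4 and 55.5 under both, *Hsd17b10* was 25.1 and 18.8, and *Etfa* 48.2 and 41.3. At the minimum of 5 CPM, 4 of 15 fatty acid oxidation genes were lower and 2 higher, 3 and 1 of 17 mitochondrial genes, 4 and 0 of 5 potassium channel genes, and 7 and 1 of 11 calcium genes. With the hormone genes out of the totals, the lower and higher counts were 7 and 0 for calcium, 3 and 0 for potassium, 1 and 2 for glucose uptake, 6 and 1 for mitochondria, and 1 and 0 for fatty acid oxidation (18.3% of all genes lower and 16.1% higher).

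With IL-1β alone the lower and higher counts were 2 and 0 of 9 for calcium, 1 and 1 of 4 for potassium, 2 and 2 of 8 for glucose uptake, 4 and 4 of 17 for mitochondria and 0 and 1 of 9 for fatty acid oxidation (5.93% and 42.4% of all genes). Among the lower genes, *Pcx* (40.4 CPM untreated and 18.5 with IL-1β) and *Slc37a4* (28.9 and 15.3) passed the minimum only through the untreated library. Among the higher ones, *Slc2a1* (16.8 and 82.3) and *Me1* (14.2 and 58.5) passed it only through the IL-1β library. With IFN-γ alone they were 0 and 1 of 11, 0 and 0 of 4, 1 and 1 of 7, 1 and 0 of 16, and 0 and 1 of 10 (0.566% and 17.9%). At the minimum of 5 CPM they were 3 and 0 of 11, 1 and 1 of 5, 3 and 2 of 9, 4 and 4 of 17, and 3 and 2 of 15 with IL-1β (8.64% and 37.2% of all genes), and 0 and 1 of 11, 1 and 0 of 6, 1 and 1 of 9, 1 and 0 of 17, and 1 and 2 of 15 with IFN-γ (1.18% and 18.4%). At 20 CPM without the hormone genes the counts were 4 and 0, 3 and 0, 3 and 2, 6 and 2, and 2 and 0 with IL-1β (15.8% and 17.1% of all genes), and 3 and 0, 0 and 0, 3 and 0, 2 and 0, and 1 and 0 with IFN-γ (3.41% and 4.63%).

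β-cells were not uniform within a library. Some were rich in *Hspa1a* by the same limit: 20 untreated, 102 IL-1β, 80 IFN-γ and 90 doubly treated cells. In the IL-1β library these cells held 319 CPM of *Hadh* (278 to 364) against 102 (95.9 to 109) in the other β-cells, and with both cytokines 172 (148 to 199) against 87.7 (83.0 to 92.6). With IFN-γ *Hadh* was 1.29 times the level of the other cells (1.14 to 1.46), and untreated 0.744 times (0.560 to 0.970). *Slc2a2* was 29.0 CPM (17.7 to 44.8) against 12.4 (10.3 to 14.9) under IL-1β, and 20.2 (12.5 to 30.8) against 9.49 (7.99 to 11.2) under both. *G6pc2* was lower in the *Hspa1a*-rich cells of all 4 libraries, at 94.3 CPM (59.1 to 143) against 292 (284 to 299) untreated and 251 (215 to 291) against 598 (582 to 613) with IL-1β, while its ratio was 0.644 (0.551 to 0.748) under IFN-γ and 0.767 (0.644 to 0.907) under the cytokine pair. *Abcc8* was lower in them as well, with ratios of 0.563 (0.404 to 0.765) untreated, 0.819 (0.693 to 0.961) under IL-1β and 0.836 (0.711 to 0.978) under IFN-γ, and 0.921 (0.8096 to 1.04) under the pair, where the interval included 1. The intervals for *Kcnj11* included 1 in all 4 libraries, and those for *Cacna1d* in 3, with a ratio of 0.694 (0.480 to 0.972) under IFN-γ. In untreated cells *Slc2a2* was 8.57 CPM (1.04 to 31.0) against 140 (134 to 145), from 2 UMIs in the 20 *Hspa1a*-rich cells. With IFN-γ it was 44.1 (30.2 to 62.2) against 92.4 (87.4 to 97.7). The order of the groups for *Slc2a2* was thus reversed between libraries with and without IL-1β. Cells of 1 library are not replicates, and no test was made. Without the *Hspa1a*-rich cells the *Hadh* ratio to untreated in β-cells was 0.323 under IL-1β and 0.277 under both, and the *Slc2a2* ratio 0.0888 and 0.0680.

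**Figure D5:**
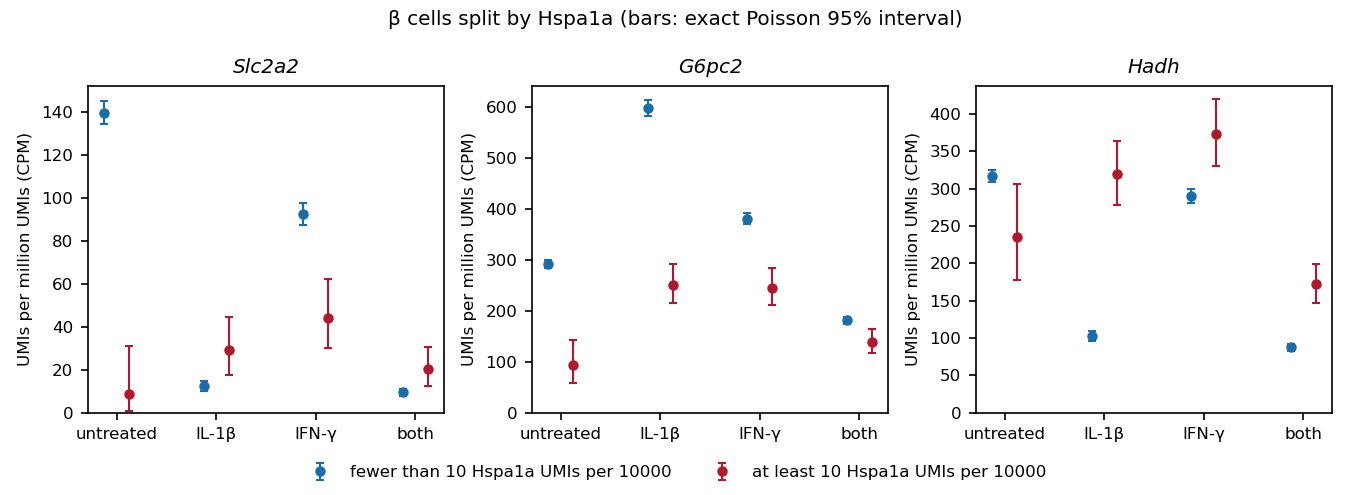
Level (CPM) of *Slc2a2*, *G6pc2* and *Hadh* in β-cells with at least 10 (red) and fewer than 10 (blue) *Hspa1a* UMIs per 10000, by library, with exact Poisson 95% intervals. *Hadh* is higher in the *Hspa1a*-rich cells of the 3 treated libraries and lower in the untreated one, and *G6pc2* is lower in them in all 4.

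*Nos2*, the inducible nitric oxide synthase gene, was seen in 342 IL-1β and 926 doubly treated β-cells. With both cytokines, *Hadh* was 72.2 CPM (67.5 to 77.2) in cells with *Nos2* and 158 (145 to 170) in cells without. With IL-1β alone it was 84.8 (75.1 to 95.4) and 133 (124 to 141). *Cacna1d* was 20.8 (18.3 to 23.5) and 28.2 (23.2 to 34.0) under both cytokines, a ratio of 0.737 (0.587 to 0.930), and *Slc2a2* with IL-1β had a ratio of 0.659 (0.432 to 0.984), or 0.672 (0.4396 to 1.002) without the hormone genes. The intervals in CPM of the other ratios, *G6pc2*, *Abcc8* and *Kcnj11* in both libraries, *Slc2a2* with both and *Cacna1d* with IL-1β, included 1. Cells with *Nos2* were deeper (median 12861 against 10583 UMIs with both).

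Other transcripts also differed between the β-cells of the libraries. Acinar markers summed to 59.5, 11.2, 64.2 and 269 CPM across the 4 libraries, led by *Ctrb1*, and ductal markers to 17.0, 132, 15.6 and 45.8 CPM, led by *Spp1*. All 5 acinar markers were detected except *Cel*, at 0 under IL-1β, and all 5 ductal markers except *Sox9*, at 0 under IFN-γ. *Sst* was 63.3, 659, 134 and 326 CPM and *Gcg* 320.2, 972, 435 and 750.0. Macrophage markers summed to 12.5, 14.6, 6.73 and 11.2 CPM, endothelial markers to 1.49, 11.4, 1.54 and 4.62, and mesenchymal markers to 0.348, 0.691, 2.10 and 0.2498. In α-cells the ductal list was far higher, 2312, 8912, 3184 and 4335 CPM, nearly all of it *Spp1*, and in δ-cells it was 210, 439, 138 and 162 CPM. In α-cells *Sst* was 209, 2140, 613 and 1644 CPM and *Iapp* 2164, 7264, 2347 and 5494. In δ-cells the PP-cell genes *Ppy* and *Pyy* summed to 84137, 48723, 80979 and 58634 CPM and *Gcg* was 295, 326, 431 and 808. The α- and δ-cell ratios were recomputed without cells holding acinar, ductal, macrophage, endothelial or mesenchymal markers, and under other limits on the next hormone. Those at least 1.5-fold from untreated that changed sides are given with the processing alternatives. The part of these transcripts in the α- and δ-cell ratios was not tested in any other way. Without the β-cells that held 3 or more UMIs of these acinar, ductal, macrophage, endothelial and mesenchymal markers, the ratio of *Slc2a2* to untreated was 0.108 with IL-1β and 0.0776 with both cytokines, and that of *Hadh* 0.378 and 0.295.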

How the data were processed

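Islet cells were captured with a 10x Genomics Chromium 3′ kit (version 2 per the labels, another version per the study's methods), sequenced on a NextSeq and counted by the authors with Cell Ranger against mm10 (matrix header software version 3.0.0). The deposited values are raw UMI counts per gene and barcode. 16 barcode sequences occurred in a pair of libraries and were left in.

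Of 12571 barcodes, 7471 passed the limits the study states (200 to 4000 genes, at most 12% mitochondrial UMIs) as applied here, fewer than the study retained; the cause was not tested. Cells were classed by leading hormone, not by the study's clusters, and the class sizes differ from its own. The 4947 β-, 882 α- and 255 δ-cells here are each fewer than the study states, with the relatively largest gap for δ-cells. Cells with mixed hormones (304) or without a leading hormone (916) were left out of the classes, as were 167 PP-cells. No doublet caller was run, and the upper gene limit and the hormone rule stood in for it. UMIs were summed per class and library. Rates have exact Poisson, ratios exact binomial and shares exact Clopper-Pearson 95% intervals. A count of 0 was given the limit that 3 counts allow. Genes with a mean of at least 20 CPM over the 2 libraries compared were called tested, and a difference of 1.5-fold was counted. No test between conditions was made, since each had 1 library. The ratio steps were tested on simulated data.

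The 6 genes and the lists were chosen with earlier results of these data known. All 6 genes are given. Up to 4 genes per list were named, those with the largest and smallest ratio with both cytokines, and per gene the 3 with the most similar levels; some genes that this rule names are not reported here. Alternatives changed the totals, the cell limits, the hormone rule, the depth, the weight of each cell, the minimum level and the fold, and left out cells rich in *Hspa1a* or in markers of other cell types. Scaling to the median gene, and the minimum of 5 CPM for the pathway lists, were added after seeing the data. Of 31053 gene IDs, 30934 matched GENCODE M21. Promoters came from RefSeq (GRCm38.p6). Python 3.11.15, numpy 2.4.6, scipy 1.17.1, pandas 2.3.3 and matplotlib 3.10.9 were used.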

Additional observations from a re-analysis of the deposited data

How the results depend on the processing

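With 1 library per condition no replicate could be left out. No paired analysis was possible because the groups compared share fewer than 2 replicate numbers. Of 556 recomputed ratios (47 ratios under up to 12 alternatives), 28 lay on the other side of 1 from the ratio reported. In β-cells these were 5, all of *Kcnj11*: 0.9997 without the hormone genes and 0.974 scaled to the median gene with IL-1β, and 0.873, 0.871 and, after thinning, 0.829 with IFN-γ. Of the 28, 4 belonged to ratios at least 1.5-fold from untreated, all in α- or δ-cells. For *G6pc2* in α-cells with IL-1β the ratio was 1.004 with no limit on the next hormone. For *Cacna1d* in α-cells with IL-1β it was 1.61 without cells holding markers of other types, which left 26 untreated and 29 IL-1β α-cells. With IFN-γ it was 0.973 after thinning. For *Kcnj11* in δ-cells with IL-1β it was 1.04 at a hormone share of at least 10%. Apart from these 4, 496 ratios stayed within the counting interval and 56 moved beyond it. With no upper gene limit, 46 ratios stayed within the counting interval and 1 moved beyond it. In β-cells the *Slc2a2* ratio ran from 0.0701 to 0.110 with IL-1β and from 0.0614 to 0.0776 with both over all alternatives, and that of *G6pc2* from 1.42 to 2.05 and from 0.522 to 0.629.

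At the minimum of 20 CPM, counts of the 6 genes at least 1.5-fold lower that moved by more than 1.5 times were the following, and the cause was not tested. Smaller moves included the β-cell count with both cytokines (4, and 3 at a fold of 2) and with IL-1β (2, and 3 at the smaller fold), and the δ-cell count with IL-1β (4, and 3 at a fold of 2). In β-cells with IL-1β the count was 4 without the hormone genes and 4 when scaled to the median gene (an alternative added after seeing the data). With IFN-γ it was 0 with no upper gene limit (*Slc2a2* at 0.672, against 0.652) and 0 at a fold of 2. In α-cells with IL-1β it was 2 with no upper gene limit, after thinning and at the smaller fold tried, and 0 with a mitochondrial limit of 20%, a hormone share of 2% and a fold of 2. In α-cells with IFN-γ it was 1 without cells holding markers of other types. In α-cells with both it was 0 with a hormone share of 2%, without *Hspa1a*-rich cells, when scaled to the median gene and at a fold of 2. In δ-cells with IFN-γ it was 1 without the hormone genes, where 18.5% of 6077 genes were lower. It was also 1 at a hormone share of 10%, with a leading hormone 10 times the next, with no limit on the next hormone and after thinning. It was 2 with no upper gene limit, with each cell weighing the same and at the smaller fold tried. In δ-cells with both it was 2 at a fold of 2. For α- and δ-cells the shares of all genes under the other alternatives are not given here. Their counts are therefore not read as results about the 6 genes. The minimum level also decides which genes enter. At 5 CPM *G6pc2* and *Hadh* enter in α-cells, with ratios of 0.520 (0.272 to 1.01) and 0.576 (0.273 to 1.26) with IL-1β. With both they were 0.223 (0.0788 to 0.560) and 0.353 (0.127 to 0.919). With IFN-γ *G6pc2* in α-cells (0.524, 0.275 to 1.02) and *Slc2a2* in δ-cells (0.584, 0.0837 to 6.46) enter below the limit. The latter rests on 4 UMIs against 2. The intervals with IL-1β and with IFN-γ included 1. At 50 CPM *Kcnj11* and *Cacna1d* leave the δ-cell counts with IL-1β and with both. *Cacna1d* then also leaves the α-cell counts and the β-cell count with both. Among all genes in β-cells, 303 were lower with IL-1β, against 808 without the hormone genes, 880 when scaled to the median gene, 795 at a minimum of 5 CPM (of 9202 genes) and 123 at 50 CPM (of 2315). With IFN-γ the 28 became 169, 174, 108 (of 9173) and 10. With both cytokines the 532 became 873 without the hormone genes, 1468 at 5 CPM (of 8992) and 196 at 50 CPM (of 2102). The 27 untreated δ-cells and 88 untreated α-cells limit every ratio in those classes.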

Other observations

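Over the 12 levels given by 3 classes and 4 libraries (log2 of CPM plus 1), the genes whose levels ran most like those of the 6 were searched among 5782 genes. For *Slc2a2* these were *Mafa* (Pearson r = 0.959), a β-cell transcription factor gene, *Sdf2l1* (0.946) and *Gga2* (0.942). For *G6pc2* they were *Maob* (0.956), *Sytl4* (0.952) and *Creg1* (0.949), and for *Hadh* *Pclo* (0.964), *Hopx* (0.960) and *Enho* (0.957). For *Cacna1d* they were *Slc24a2* (0.948), *Prnp* (0.922) and *Bpnt1* (0.905), for *Abcc8* *Akap8l* (0.906), *Gigyf1* (0.901) and *Slc4a3* (0.899), and for *Kcnj11* *Syf2* (0.940), *Acin1* (0.932) and *Trim2* (0.920). Among the 6 genes themselves r ran from -0.722 (*G6pc2* and *Kcnj11*) to 0.799 (*Kcnj11* and *Abcc8*). The levels share libraries, totals and depth, and these values describe the 12 levels only.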
